A study of Mus musculus with 6 samples.

Results

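The exon junction complex (EJC) core and the Upf factors were followed through a CPEB1 RIP-seq experiment on satellite cells (SCs), the stem cells of skeletal muscle. The set held 9 of the 55376 genes in the tables, namely Eif4a3, Rbm8a, Magoh, Magohb, Casc3, Upf1, Upf2, Upf3a and Upf3b. It was chosen on the level of Eif4a3, which stood out in the CPEB1 immunoprecipitate over both controls, and the other 8 genes were added for their known function beside it. The values of Eif4a3 in CPEB1 IP against IgG and against input are therefore a description and carry no test. The other 8 genes were tested in these comparisons and all 9 in IgG against input. For Eif4a3 this last test uses control values that were part of the choice.

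RIP-seq sequences the RNA that comes down with a protein on antibody-coated beads. All 6 libraries came from freshly isolated SCs of C57BL/6 mice aged 3 months, with no treatment or altered allele named in the labels. According to the study's methods, the cells were sorted from hindlimb muscle as CD31-, CD45-, Sca1- and Vcam1+. Precipitates made up both antibody groups, with 2 libraries from an anti-CPEB1 antibody (CPEB1 IP) and 2 from an anti-IgG control antibody (IgG), and 2 further libraries came from input RNA that saw no antibody. The comparison with IgG asks which RNAs came down with CPEB1 beyond those that stick to any antibody and bead, and the comparison with input asks how the precipitated RNA differs from the RNA of the cells. The libraries are bulk RNA, so that fewer cells of a type and less RNA per cell cannot be told apart. The replicates are called biological, from independent experiments, but the animals behind each are not named, so that the p-values measure only the spread between these libraries.

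The EJC is laid down on messenger RNA upstream of exon-exon junctions during splicing and travels with the RNA into the cytoplasm. Eif4a3 is the DEAD-box RNA helicase that clamps the RNA, and the heterodimer of Rbm8a (also called Y14) and Magoh, or its close paralog Magohb, locks it in place. Casc3 (also called MLN51 or Barentsz) binds Eif4a3 and the RNA. When translation ends upstream of an EJC, the complex can recruit Upf3b or Upf3a, then Upf2 and the helicase Upf1, and the RNA is degraded by nonsense-mediated decay (NMD). CPEB1 binds cytoplasmic polyadenylation elements (CPEs), short U-rich motifs in 3′ UTRs, and regulates the length of the poly(A) tail and the translation of its targets.

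CPE motifs were looked up first, since they are the sequence that CPEB1 is known to bind. The 3′ UTR of Eif4a3 held no CPE motif, and neither did that of Upf1, while the other 7 genes held at least 1. Searched were 9 motifs on the transcript strand, namely TTTTAT and TTTTAAT, called canonical here, then TTTTACT or TTTTCAT, then TTTTAAAT or TTTTAACT, then TTTTAAGT or TTTTAATT, and lastly TTTTAAAGT. TTTTAAT lies inside TTTTAATT, so that 1 stretch can count as both. Any of the 9 motifs was present in 65.7% of the 21005 genes with an annotated 3′ UTR (GENCODE M21, mm10) and in 74.3% of the 10880 such genes that were tested for CPEB1 IP against IgG. TTTTAT alone occurred in 51.6% of the longest 3′ UTRs and TTTTAAT in 28.5%.

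The 3′ UTR of Eif4a3 spans 180 bases, and a motif was present in 20.9% of the 1275 genes whose longest 3′ UTR was within 20% of that length. That of Upf1 spans 958 bases, where 72.8% of 2672 genes held one. Magoh held 1 motif in 148 bases, against 17.9% of genes of like length with any, and Magohb held 3 in 241 bases, against 28.3%. The sites of Magoh, Magohb and Rbm8a, the partners that clamp Eif4a3, and that of Upf2, the only gene with a motif but no canonical one, are printed here 5′ to 3′ on the transcript strand with the motif in capitals, as windows of 30 bases. Each sequence stands as DNA, T for U.

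Magoh, chr4:107887346-107887375, plus strand: tattggggcaatTTTTATaaacaataaatg
Magohb first site, chr6:131284543-131284572, minus strand: caattttgggatTTTTATgaatgtgaaact
Magohb next site, chr6:131284526-131284555, minus strand: tgaatgtgaaacTTTTATatataaactcaa
Magohb last site, chr6:131284480-131284509, minus strand: aggttacatggtTTTTATttcttggctcca
Rbm8a first site, chr3:96631663-96631692, plus strand: ccccttctgttTTTTCATtttcttagagga
Rbm8a next site, chr3:96632634-96632663, plus strand: tttgtttttttTTTTAATttttctgagaca
Rbm8a last site, chr3:96632733-96632762, plus strand: ccactgcccggcTTTTATcatagtttttag
Upf2, chr2:6056339-6056368, plus strand: acaagtagagcTTTTACTttgcttttgttt

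In Magoh, the motif began at base 82 of the 3′ UTR, with 61 bases between it and the end of the annotated transcript. The sites of Magohb began at bases 69, 86 and 132. Rbm8a held 4 motif matches in 2219 bases at 3 places, of which 2 were canonical, and its next site also reads as TTTTAATT, and 92% of genes of like length held a motif. Casc3 held 4 in 1596 bases, with 2 canonical, and Upf3b held 5 matches in 834 bases, with 3 canonical. In Upf3b the stretch at base 570 counts as both TTTTAAT and TTTTAATT. Upf3a held a single canonical motif in 719 bases and Upf2 a single motif in 1261 bases. Among the paralogs of Eif4a3, which act in translation initiation, Eif4a1 held none in 537 bases and Eif4a2 held 3 in 1586 bases. A match is no proof of binding, and the absence of one says only that these letters are not in the annotated 3′ UTR.

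**Figure D1:**
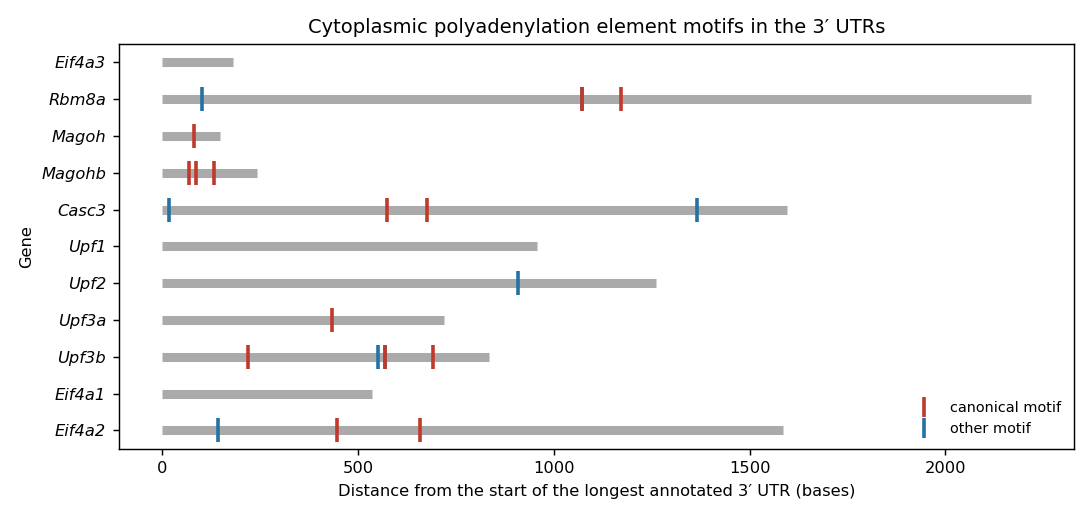
CPE motifs along the longest annotated 3′ UTR of each gene. The x axis gives the distance from the start of the 3′ UTR in bases, grey bars span the 3′ UTR, red ticks mark the 2 canonical motifs and blue ticks the other motifs. Eif4a3 with 180 bases, Upf1 with 958 and Eif4a1 with 537 carry no tick, and the 3 ticks of Magohb lie within 241 bases.

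Before the levels are given, it must be said how the libraries differed. Counts on genes ran from 1284716 to 4941653 in a library, with both IgG libraries the shallowest. Counts on genes were 39.1% and 39.5% of the library totals behind the authors' FPKM in IgG, against 69.5% to 79.8% in the other 4 libraries. All 8 SC markers (among them Pax7 and Myf5) had counts in every library and summed to between 7810 and 10572 CPM (counts per library, scaled by TMM-normalized library size), whereas 4 haematopoietic markers summed to 31.1 and 19.7 CPM in IgG and to at most 4.75 CPM elsewhere, with Ptprc and Itgam at 0 in a library each of CPEB1 IP and input. Markers of cells that the sort should remove were higher in the precipitates than in input, at 248 and 269 CPM in CPEB1 IP, compared with 181 and 189 in IgG and, in input, 42.7 and 29.3 over 4 endothelial genes. Over 4 fibro-adipogenic genes they summed to 499 and 506 CPM in CPEB1 IP, compared with 396 and 354 in IgG and, in input, 298 and 243. Over 4 myofibre genes the sums were 117 and 148, 112 and 101, and 68.7 and 57.9 CPM in these groups. Their part in the results was not tested. Cpeb1 itself, the gene of the precipitated protein, had 197 and 216 CPM in CPEB1 IP, compared with 90.4 and 95.4 in IgG and, in input, 97.6 and 82.2.

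Eif4a3 transcripts were far more abundant in CPEB1 IP than in either control, with log2 fold changes over 2, whereas those of the other 8 genes in the same comparisons lay between -0.51 and 0.93. Eif4a3 (ENSMUSG00000025580.15) lies at chr11:119288363-119300089 of mm10 on the minus strand. The CPEB1 IP libraries had 789 and 756 CPM of it, compared with 156 and 154 in IgG and, in input, 167 and 228. Both CPEB1 IP libraries thus lay above all 4 controls by more than 3-fold, and the IgG libraries lay below both input libraries. These levels rest on raw counts of 1894 and 3664, 205 and 212, and 545 and 724. The log2 fold change was 2.25 over IgG (4.76-fold, SE 0.10) and 2.02 over input (4.06-fold, SE 0.15).

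Of the 12124 genes tested against IgG, Eif4a3 had rank 5 by log2 fold change. Among the 2189 of them with a mean over 100 CPM it ranked 1, ahead of Ttc28 with a log2 fold change of 1.94. Against input it ranked 132 of 12171, and 8 of 2365 genes with a mean over 100 CPM. These ranks use the measure that chose the set and are given as its size only. The gene took 0.0739% and 0.0741% of all counts on genes in CPEB1 IP, compared with 0.0160% and 0.0156% in IgG and, in input, 0.0167% and 0.0218%.

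**Figure D2:**
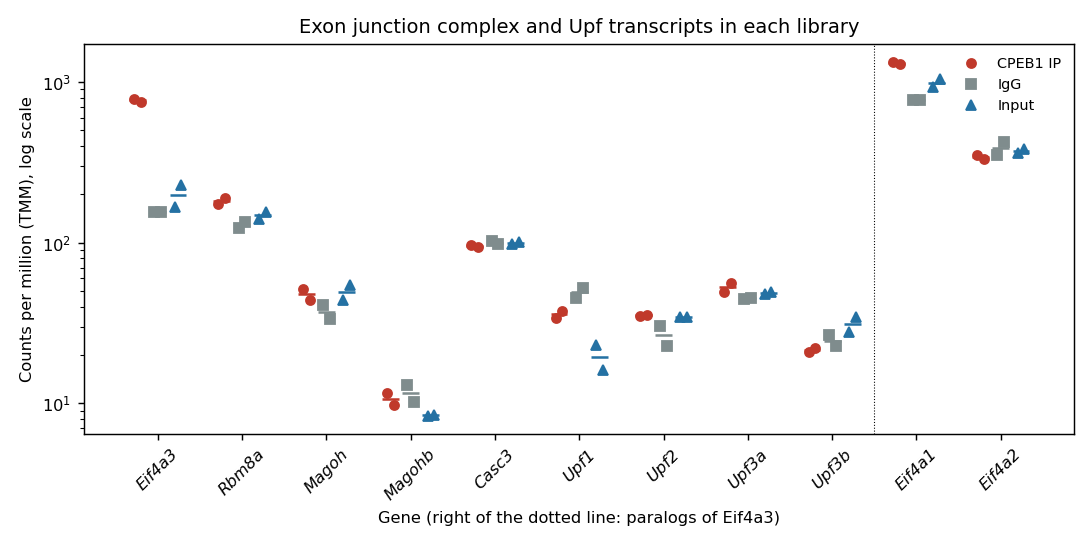
Level of the 9 genes and of the paralogs Eif4a1 and Eif4a2 in each of the 6 libraries. The y axis gives TMM-normalized CPM on a log scale, each point is 1 library, the bar is the mean of the 2 libraries of a group, and red circles, grey squares and blue triangles stand for CPEB1 IP, IgG and input. Eif4a3 stands at 756 to 789 in CPEB1 IP and at 154 to 228 in the other libraries, while Casc3 stays between 93.7 and 102 in all 6.

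For comparisons between genes, levels are given as FPKM, which divides by the length of the gene. In input, the order was Eif4a3 with 55.8 and 82.2 FPKM, Magoh with 40.6 and 54.4, Rbm8a with 31.2 and 36.7, and Casc3 with 16.1 and 17.9. Ranges of these 4 genes did not overlap with that of the next. Upf3a followed with 5.82 and 6.41 FPKM and Upf3b with 4.89 and 6.63, which overlapped. Upf2 with 4.49 and 4.80, Magohb with 3.41 and 3.78 and Upf1 with 2.66 and 3.53 FPKM came last, and the ranges of Magohb and Upf1 overlapped. The core transcripts other than Magohb were thus above all 4 Upf transcripts in the input RNA.

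In CPEB1 IP the distance between Eif4a3 and the rest was far wider. Eif4a3 had 243 FPKM in both libraries, ahead of Magoh with 43.9 and 39.1 and Rbm8a with 35.7 and 40.0, which overlapped. Casc3 had 14.8 FPKM in both, and the 4 Upf genes and Magohb had between 3.41 and 6.55. In IgG the order began in the same way, with Eif4a3 at 29.7 and 28.7 FPKM, Magoh at 21.6 and 17.2, Rbm8a at 15.6 and 16.5 and Casc3 at 9.59 and 8.96. Upf1 followed there with 4.0 and 4.48 FPKM, above the 3.04 and 3.10 of Upf3a, and Upf2 came last with 2.25 and 1.63. The authors' length of Upf3a, 5865 bases of summed exons, is well above its 2057-base coding transcript, and with the longest coding transcript as length 7 of 9 genes kept their place in the input order. Of the other 2, Magohb then came before Upf2. In IgG that length turned the order of Upf1 and Upf3a around, with Upf3a in place 5 and Upf1 in place 7, and in CPEB1 IP it put Upf3a in place 4, ahead of Casc3, with overlapping ranges. The first 3 genes kept their order in each group.

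Within a library, the ratio of 2 genes per length does not depend on how libraries are scaled to each other. Eif4a3 was 6.82 and 6.07 times as abundant per length as Rbm8a in CPEB1 IP, compared with 1.91 and 1.74 times in IgG and, in input, 1.79 and 2.24 times. Against Magoh, the ratios were 5.54 and 6.21 in CPEB1 IP, compared with 1.38 and 1.67 in IgG and, in input, 1.37 and 1.51. Against Casc3, they were 16.5 and 16.4, 3.10 and 3.21, and 3.48 and 4.59. Eif4a3 made up 71.1% and 71.3% of the 5 core transcripts per length in CPEB1 IP, compared with 37.4% and 39.0% in IgG and, in input, 37.9% and 42.1%. IgG and input overlapped in this share, and CPEB1 IP stood apart from both. This separation follows largely from the choice of the set on Eif4a3, so these ratios and shares are given as its size only. With the longest coding transcript as length the share was 74.8% and 75.0% in CPEB1 IP, compared with 41.7% and 43.4% in IgG and, in input, 42.7% and 47.0%.

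**Figure D3:**
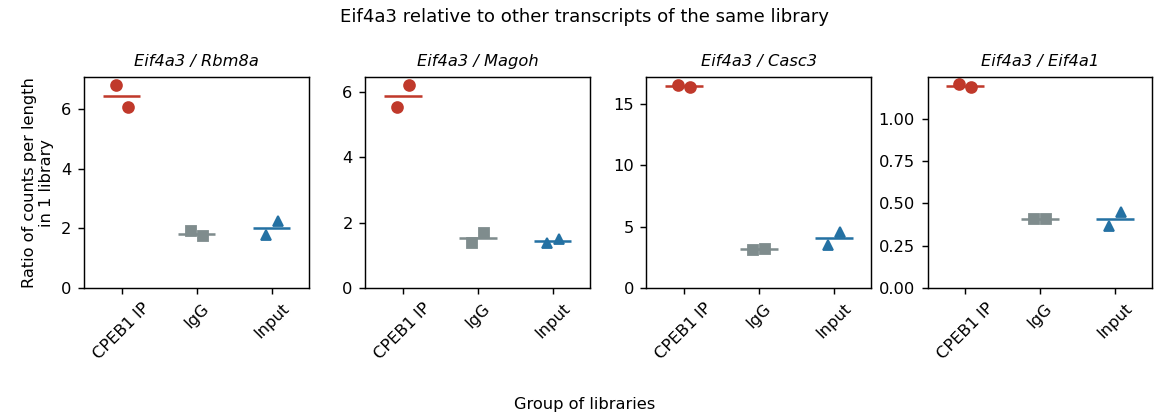
Ratio of Eif4a3 to Rbm8a, Magoh, Casc3 and Eif4a1 within each library. The y axis gives the ratio of counts per base of gene length, starting at 0, each point is 1 library and the bar is the mean of a group. The ratio to Rbm8a is 6.07 and 6.82 in CPEB1 IP and 1.74 to 2.24 in the other 4 libraries.

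The paralogs of Eif4a3 differed from it and from each other. Eif4a1, the helicase of the translation initiation complex, had 1340 and 1302 CPM in CPEB1 IP, compared with 776 and 774 in IgG and, in input, 936 and 1043. Its CPEB1 IP libraries lay above all controls, and it was higher than in IgG by a log2 fold change of 0.70 (SE 0.09, adjusted p = 1.14e-05, edgeR's quasi-likelihood F test, adjusted by Benjamini-Hochberg over all genes) and higher than in input by 0.47 (SE 0.12, adjusted p = 0.0110). Its call against input was lost with either CPEB1 IP library left out (adjusted p = 0.146 and 0.172) and with the authors' FPKM totals as library sizes (0.186), in a range of 3.90e-06 to 0.186 over all fits. Eif4a2, which is close to Eif4a1 in sequence and function, had 350 and 334 CPM in CPEB1 IP, compared with 354 and 426 in IgG and, in input, 361 and 382, so that CPEB1 IP had the lowest values. Its log2 fold change over IgG was -0.26 (95% interval -0.47 to -0.04, adjusted p = 0.0579), and it had no stable direction. It passed the test as lower with counts on genes as library size (-0.32, adjusted p = 0.0115) and without replicate 1 of IgG (-0.33, adjusted p = 0.0370), was positive without passing it with DESeq2 (0.03) and with no filter on low counts (0.14), and passed it as higher with the authors' FPKM totals (0.55, adjusted p = 3.03e-05). Per summed exon length, Eif4a3 was at 1.20 and 1.19 times the level of Eif4a1 in CPEB1 IP, at 0.410 and 0.407 times in IgG and at 0.365 and 0.446 times in input. Which of the pair was the higher in CPEB1 IP depends on that length, since with the longest coding transcript the ratios were 0.692 and 0.683, 0.236 and 0.234, and 0.210 and 0.257. With either length, the ratio in CPEB1 IP lay above those of all 4 controls, which again rests on the values of Eif4a3 that chose the set.

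Among the 8 other genes, only Rbm8a passed the test for CPEB1 IP against IgG. This was 1 of 8 genes higher and none lower, where 14.7% of all 12124 genes tested were higher in CPEB1 IP and 18.7% were lower. The median log2 fold change of the 8 genes was 0.03, and it was -0.01 over all genes. The count of 1 is near these backgrounds and says nothing particular about the set.

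Rbm8a (ENSMUSG00000038374.10, chr3:96629933-96633791, plus strand) had 175 and 189 CPM in CPEB1 IP, compared with 124 and 135 in IgG and, in input, 141 and 154. Its CPEB1 IP values lay above all 4 control libraries, and the input values lay above those of IgG. The log2 fold change over IgG was 0.43 (SE 0.12, 95% interval 0.19 to 0.68, adjusted p = 0.00720), or 1.35-fold. Without replicate 2 of CPEB1 IP the call was lost (0.40, adjusted p = 0.103), and the adjusted p of all fits lay between 7.39e-09 and 0.103. Against input the log2 fold change was 0.35 (95% interval 0.07 to 0.64, adjusted p = 0.0579), and it passed the test without replicate 2 of input (0.41, adjusted p = 0.00667).

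Magoh (ENSMUSG00000028609.6, chr4:107879755-107887424, plus strand), the partner of Rbm8a, had 51.7 and 44.2 CPM in CPEB1 IP, compared with 41.0 and 33.5 in IgG and, in input, 44.2 and 54.8. CPEB1 IP lay above IgG and overlapped with input. The log2 fold change was 0.28 over IgG (95% interval -0.14 to 0.71, adjusted p = 0.312) and -0.01 over input (95% interval -0.40 to 0.39). With no filter on low counts it passed the test against IgG (0.68, adjusted p = 0.0442), in a range of 8.42e-05 to 0.629 over all fits. Its paralog Magohb (ENSMUSG00000030188.12, chr6:131284388-131293244, minus strand) was the lowest of the set in CPM, with 11.7 and 9.70 in CPEB1 IP, compared with 12.9 and 10.2 in IgG and, in input, 8.29 and 8.50. These rest on 14 to 47 counts in a library, and the 95% interval of the log2 fold change over IgG reached from -1.01 to 0.61. Per length, Magoh was 9.89 and 10.2 times as abundant as Magohb in CPEB1 IP, compared with 7.10 and 7.34 times in IgG and, in input, 11.9 and 14.4 times.

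Casc3 (ENSMUSG00000078676.9, chr11:98804905-98833814, plus strand) varied least of all 9 genes in CPM. It had 97.1 and 93.7 CPM in CPEB1 IP, compared with 102 and 97.6 in IgG and, in input, 97.6 and 101. The log2 fold change was -0.13 over IgG (95% interval -0.41 to 0.15, adjusted p = 0.487) and -0.01 over input (95% interval -0.31 to 0.30, adjusted p = 0.977). With the authors' FPKM totals as library sizes, Casc3 passed the test as higher over IgG (0.68, adjusted p = 0.000202). It then also passed as lower in IgG than in input (-0.87, adjusted p = 0.000575). Its locus overlaps Msl1 on the same strand and Gm12359 on the other strand, and the sources do not say whether the counting used strand.

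**Figure D4:**
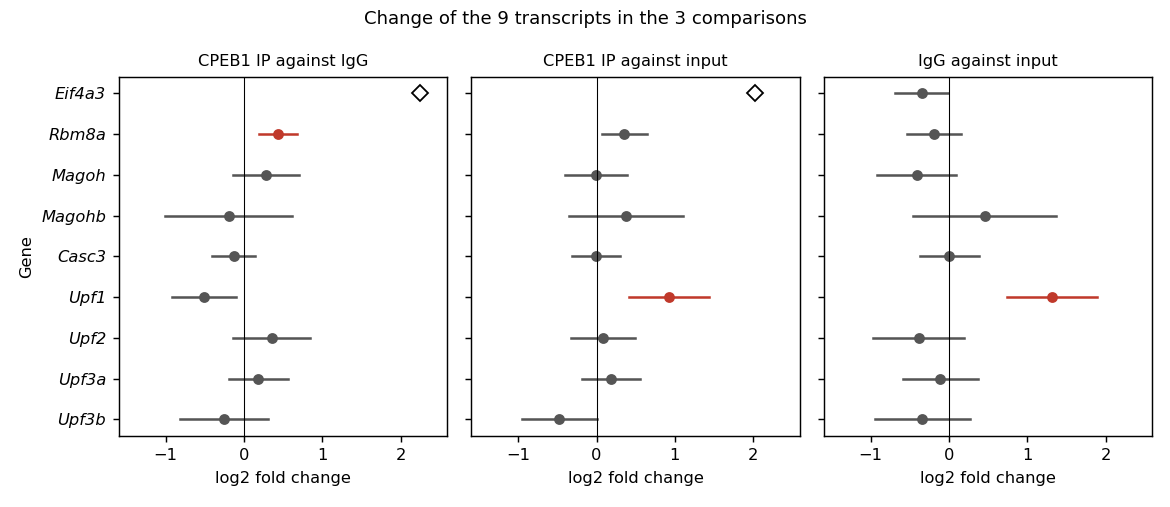
Log2 fold change of the 9 genes in CPEB1 IP against IgG, CPEB1 IP against input and IgG against input. Points are estimates of edgeR with 95% intervals as lines, red marks an adjusted p under 0.05, and open diamonds mark the values of Eif4a3 that chose the set, drawn with no interval or test. Red are Rbm8a in the first panel and Upf1 in the other panels.

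Upf1 passed the test as higher than input in both precipitates, and no other gene tested in both comparisons did. Against input, 1 of the 8 genes was higher in CPEB1 IP and none was lower, where 17% of 12171 genes tested were higher and 15.8% were lower. The median log2 fold change of the 8 genes was 0.13, and it was -0.004 over all genes. For IgG against input, 1 of all 9 genes was higher and none was lower, where 21.4% of 12980 genes were higher and 19.4% were lower. The medians were -0.19 over the 9 genes and 0.03 over all genes. In both comparisons the gene called was Upf1, and the comparisons share the input libraries.

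Upf1 (ENSMUSG00000058301.8, chr8:70331525-70353278, minus strand), the helicase at the centre of NMD, had 34.2 and 37.4 CPM in CPEB1 IP, compared with 45.6 and 52.4 in IgG and, in input, 23.0 and 16.1. The 3 groups did not overlap in CPM, with IgG the highest and input the lowest. By the authors' FPKM, CPEB1 IP was the highest, with 4.84 and 5.51 against 4.0 and 4.48 in IgG. The log2 fold change over input was 0.93 in CPEB1 IP (SE 0.24, 95% interval 0.41 to 1.44, adjusted p = 0.00985) and 1.32 in IgG (SE 0.28, 95% interval 0.75 to 1.89, adjusted p = 0.000258). CPEB1 IP against IgG gave -0.51 (95% interval -0.92 to -0.10, adjusted p = 0.0517), and this value passed the test with counts on genes as library size (-0.57, adjusted p = 0.0370). With DESeq2 both calls against input were lost (adjusted p = 0.0536 in CPEB1 IP and 0.0562 in IgG), as was that of CPEB1 IP without its replicate 2 (0.0882) and that of IgG with the authors' FPKM totals (0.187). Over all fits the adjusted p lay between 0.000299 and 0.0882 for CPEB1 IP and between 1.47e-05 and 0.187 for IgG. Upf1 was counted 51 to 181 times in a library, and its locus overlaps Cers1 and Gdf1 on the other strand by 68 and 63 bases.

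Upf2 (ENSMUSG00000043241.14, chr2:5951469-6056703, plus strand), which bridges Upf1 and the Upf3 proteins, had 35.0 and 35.5 CPM in CPEB1 IP, compared with 30.4 and 22.6 in IgG and, in input, 34.7 and 34.3. It was lowest in both IgG libraries, which also had the fewest counts on it, 40 and 31. Its log2 fold change was 0.35 over IgG (95% interval -0.15 to 0.85, adjusted p = 0.281) and 0.08 over input (95% interval -0.33 to 0.50). The ratio of Upf1 to Upf2 per length was 1.16 and 1.25 in CPEB1 IP, compared with 1.78 and 2.75 in IgG and, in input, 0.787 and 0.555. These ratios did not overlap between any 2 groups.

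The paralogs Upf3a and Upf3b, which tie the EJC to Upf2, did not pass the test in any of the 3 comparisons. Upf3a (ENSMUSG00000038398.8, chr8:13785615-13799193, plus strand) had 49.6 and 56.4 CPM in CPEB1 IP, compared with 44.8 and 45.2 in IgG and, in input, 48.2 and 49.1. CPEB1 IP was the highest group, with log2 fold changes of 0.18 over IgG (95% interval -0.20 to 0.56) and 0.18 over input (95% interval -0.18 to 0.55). Upf3b (ENSMUSG00000036572.16, chrX:37091678-37110322, minus strand), the more active of the pair in NMD, had 20.8 and 22.1 CPM in CPEB1 IP, compared with 26.6 and 22.6 in IgG and, in input, 27.6 and 34.6. Both precipitates lay below both input libraries, and the log2 fold change of CPEB1 IP over input was -0.48 (95% interval -0.96 to 0.01, adjusted p = 0.120). This value passed the test without replicate 1 of input (-0.65, adjusted p = 0.0352) and with the authors' FPKM totals (-0.67, adjusted p = 0.0456), in a range of 0.0352 to 0.391 over all fits. The ratio of Upf3a to Upf3b per length was 1.62 and 1.74 in CPEB1 IP, compared with 1.15 and 1.36 in IgG and, in input, 1.19 and 0.967.

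The choice of the set did not rest on IgG against input, but it used the values of Eif4a3 in both of these groups. The test of Eif4a3 in this comparison is therefore not independent of that choice. For IgG against input, Eif4a3 gave a log2 fold change of -0.35 (SE 0.17, 95% interval -0.69 to -0.01, adjusted p = 0.0961). It passed the test as lower in IgG without replicate 1 of input (-0.53, adjusted p = 0.00257) and with no filter on low counts (-0.62, adjusted p = 0.0267), in a range of 5.44e-06 to 0.553 over all fits. The other core genes gave -0.19 for Rbm8a, -0.41 for Magoh, 0.46 for Magohb and 0.01 for Casc3, with adjusted p between 0.191 and 0.985. Upf2 gave -0.39, Upf3a -0.11 and Upf3b -0.34, with adjusted p between 0.294 and 0.730. Eif4a1 was lower in IgG by -0.35 (SE 0.13, adjusted p = 0.0283), a call that was lost without either IgG library (adjusted p = 0.284 and 0.299) and with counts on genes as library size (0.124), in a range of 2.10e-07 to 0.299 over all fits.

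The study compares FPKM of CPEB1 IP with that of IgG within each experiment. To call a target it asks for a ratio over 2 in each and also for a DESeq2 adjusted p under 0.05. Only the FPKM ratio is counted here. With 1 added to each FPKM, the ratio for Eif4a3 was 7.95 in experiment 1 and 8.20 in experiment 2, and that for Rbm8a was 2.21 and 2.34. These 2 genes of 9 had a ratio over 2 in both experiments, as did 14.4% of the 12124 genes tested, and the first of them is the gene that chose the set. With 0.1 added instead, Magoh joined them, and with 5 added Eif4a3 alone was left. Magoh had 1.99 and 2.21 and Upf2 had 1.60 and 2.06, and the other 5 genes lay between 1.17 and 1.87. Eif4a1 had 2.76 and 2.87, Eif4a2 had 1.58 and 1.34, and Cpeb1 had 3.26 and 3.61. The median ratio of all genes tested was 1.45 and 1.52, and with FPKM computed from TMM library sizes Eif4a3 alone stayed over 2 in both experiments.

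These FPKM ratios and the log2 fold changes rest on different library sizes. With the authors' FPKM totals as library sizes, the median log2 fold change of all genes moved from -0.01 to 0.84 for CPEB1 IP against IgG, from -0.004 to -0.20 for CPEB1 IP against input and from 0.03 to -0.93 for IgG against input. The calls over all genes then split into 7212 higher and 521 lower of 11503 for CPEB1 IP against IgG, in place of 1779 and 2265. They split into 1222 and 2753 of 12046 for CPEB1 IP against input, in place of 2069 and 1921. For IgG against input they split into 551 and 7172 of 12008, in place of 2772 and 2515. Of the 8 genes, 5 were then higher over IgG (Rbm8a, Magoh, Casc3, Upf2 and Upf3a), and 7 of 9 were lower in IgG than in input. Upf1, Casc3, Magohb and Upf3b turned from lower to higher values over IgG, Upf2 and Upf3a turned to lower values against input, and Magohb and Casc3 did so for IgG against input. Relative to the median gene, the values hardly moved. Rbm8a was at 0.44 over the median with TMM and at 0.40 with the FPKM totals for CPEB1 IP against IgG, Eif4a3 was at 2.26 and 2.21, and Upf1 was at 1.29 and 1.38 for IgG against input. Casc3 alone changed its side of the median, from -0.003 to 0.0004 against input and from -0.03 to 0.06 for IgG against input.

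Further proteins of the EJC pathway were taken from a list of 15 genes, which included the splicing-associated factors ACIN1, RNPS1, SAP18 and PNN, export factors and cap-binding proteins. Of these 15 genes, 4 were higher in CPEB1 IP than in IgG and none was lower, where 14.7% and 18.7% of all genes were, with a median log2 fold change of 0.20 beside -0.01 over all genes. DESeq2 and the fit with no filter on low counts each called 9 higher and none lower. Over all genes they called 2619 higher and 984 lower of 19222, and 3513 and 2336 of 42045. The authors' FPKM totals gave 14 higher and 0 lower, beside 7212 and 521 of 11503 genes. With counts on genes as library size 3 were higher and 1 was lower, beside 1435 and 2491 of 12124 genes. With all 6 libraries in 1 fit they were 3 and 0, beside 1714 and 2245 of 14276 genes. Ctif, a factor of translation on newly exported RNA, had 25.0 and 22.9 CPM in CPEB1 IP against 14.4 and 4.37 in IgG (log2 fold change 1.28, SE 0.39, adjusted p = 0.0141). Acin1 had 164 and 179 CPM against 113 and 106 (0.59, SE 0.12, adjusted p = 0.000904), and Rnps1 had 302 and 286 against 236 and 210 (0.33, SE 0.10, adjusted p = 0.0172). Both encode subunits of complexes that join the EJC core. The fourth was Ddx39b, an RNA helicase of splicing and export, with 0.30. The value of Ctif rests on the IgG libraries, since it was 0.70 without replicate 2 of IgG (adjusted p = 0.167) and 2.42 without replicate 1. The call of Rnps1 was lost without replicate 2 of IgG (adjusted p = 0.0928) and without replicate 1 of CPEB1 IP (0.0624). The adjusted p of the pair lay in ranges of 4.66e-05 to 0.167 and 2.41e-09 to 0.0928 over all fits.

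Against input, 5 of the 15 genes were higher in CPEB1 IP and none was lower, where 17% and 15.8% of all genes were, with a median of 0.36 beside -0.004 over all genes. With either CPEB1 IP library left out fewer of them were called, and so were fewer of all genes. Alyref, an export adaptor, had 49.6 and 53.7 CPM against 22.4 and 30.2 in input (1.03, SE 0.20, adjusted p = 0.00191). Cwc22, the splicing factor that brings Eif4a3 to the spliceosome, had 27.1 and 27.9 against 18.7 and 15.7 (0.72, SE 0.24, adjusted p = 0.0322), a call that DESeq2 did not make (adjusted p = 0.186) and that was lost with either CPEB1 IP library left out (0.109 and 0.227) and without replicate 2 of input (0.0717), in a range of 0.0156 to 0.227 over all fits. Rnps1 had 0.64 (adjusted p = 0.00304), a call that was lost with either CPEB1 IP library left out (0.0612 and 0.0516, the highest being 0.0612 over all fits). Acin1 had 0.62 and Pnn 0.43. For IgG against input, Alyref was higher by 0.96 (adjusted p = 0.00496) and Ddx39b was lower by -0.61 (adjusted p = 0.00149), which is 1 of 15 in each direction where 21.4% and 19.4% of all genes were called, with a median of 0.05 beside 0.03 over all genes. The call of Alyref was lost with DESeq2 (adjusted p = 0.211) and without replicate 2 of IgG (0.48, adjusted p = 0.362), in a range of 0.000893 to 0.851 over all fits. That of Ddx39b was lost with either IgG library left out (adjusted p = 0.0502 and 0.0872).

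Of 18 genes of NMD and translation termination, 17 were tested in the comparisons of CPEB1 IP. Against IgG, 4 were higher and 4 were lower, where 14.7% and 18.7% of all genes were, with a median of -0.14 beside -0.01 over all genes. This balance depends on the fit. DESeq2 and the fit with no filter on low counts each called 6 higher and none lower. That with the authors' FPKM totals called 12 higher and none lower. Over all genes DESeq2 called 2619 and 984 of 19222, no filter 3513 and 2336 of 42045 and the FPKM totals 7212 and 521 of 11503. Higher were the ATPases Ruvbl1, with 160 and 166 CPM against 85.1 and 56.8 in IgG (1.14, SE 0.15, adjusted p = 1.61e-05), and Ruvbl2, with 118 and 121 against 80.5 and 69.9 (0.61, SE 0.14, adjusted p = 0.00213), together with Smg8, a regulator of the kinase that phosphorylates UPF1 (1.04, adjusted p = 0.0289), and Pabpc1 (0.36). Lower were the exonuclease Xrn1, with 35.0 and 26.8 CPM against 63.8 and 41.5 (-0.86, SE 0.23, adjusted p = 0.00616), the decapping activator Dcp1a (-0.56, adjusted p = 0.0385), Smg5 (-0.48, adjusted p = 0.00889) and Smg1 (-0.42). With the authors' FPKM totals Dcp1a (0.25) and Smg5 (0.33) turned to higher values. The call of Xrn1 was lost without replicate 2 of CPEB1 IP (adjusted p = 0.142) and without replicate 1 of IgG (-0.47, adjusted p = 0.179), in a range up to 0.839 over all fits. That of Dcp1a was lost without either CPEB1 IP library (0.242 and 0.125) and without replicate 2 of IgG (-0.17, adjusted p = 0.621), and that of Smg5 without replicate 1 of CPEB1 IP (0.182) and replicate 1 of IgG (0.0538). The call of Smg8 was lost without replicate 2 of CPEB1 IP (0.56, adjusted p = 0.470) and without replicate 1 of IgG (0.109), in a range of 8.25e-05 to 0.470 over all fits.

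Against input, 6 of the 17 genes were higher and 2 were lower, where 17% and 15.8% of all genes were, with a median of 0.30 beside -0.004 over all genes. Etf1, the release factor that reads the stop codon, had 600 and 599 CPM in CPEB1 IP, compared with 504 and 520 in IgG and, in input, 271 and 347 (1.01 over input, SE 0.14, adjusted p = 0.000164). Ruvbl1 had 0.99 (adjusted p = 0.000221) and Ruvbl2 0.94 (adjusted p = 0.000422), and Gspt1, Smg1 and Pabpc1 were the others higher. Xrn1 with -0.56 (adjusted p = 0.0452) and Smg9 with -0.53 (adjusted p = 0.0351) were lower, and neither was called with DESeq2 (adjusted p = 0.159 and 0.109) or with either CPEB1 IP library left out (0.0846 and 0.433 for Xrn1, 0.147 and 0.272 for Smg9), in ranges of 0.0133 to 0.433 and 0.000515 to 0.272 over all fits. For IgG against input, 3 of 18 genes were higher and 1 was lower, shares below the 21.4% and 19.4% of all genes. Higher were Smg1 (0.86, adjusted p = 2.40e-05), Etf1 (0.73, adjusted p = 9.73e-05) and Gspt1 (0.72, adjusted p = 0.00155), and Pnrc2 was lower (-0.78, adjusted p = 0.000431), with a median of 0.19 beside 0.03 over all genes. With the authors' FPKM totals Smg1 (-0.02), Etf1 (-0.16) and Gspt1 (-0.17) turned to lower values in IgG, and DESeq2 did not call Gspt1 (adjusted p = 0.113), nor did the fit without replicate 2 of IgG (0.0667, in a range of 6.07e-05 to 0.482 over all fits). In CPM, Smg1, the kinase of Upf1, had 318 and 282 in IgG, then 235 and 234 in CPEB1 IP, then 170 and 160 in input. Upf1 had the same order of groups in CPM, while Etf1 had its highest values in CPEB1 IP. The order was not kept with the authors' FPKM totals, with -0.02 for Smg1 in IgG against input and 0.30 for Upf1 in CPEB1 IP against IgG.

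**Figure D5:**
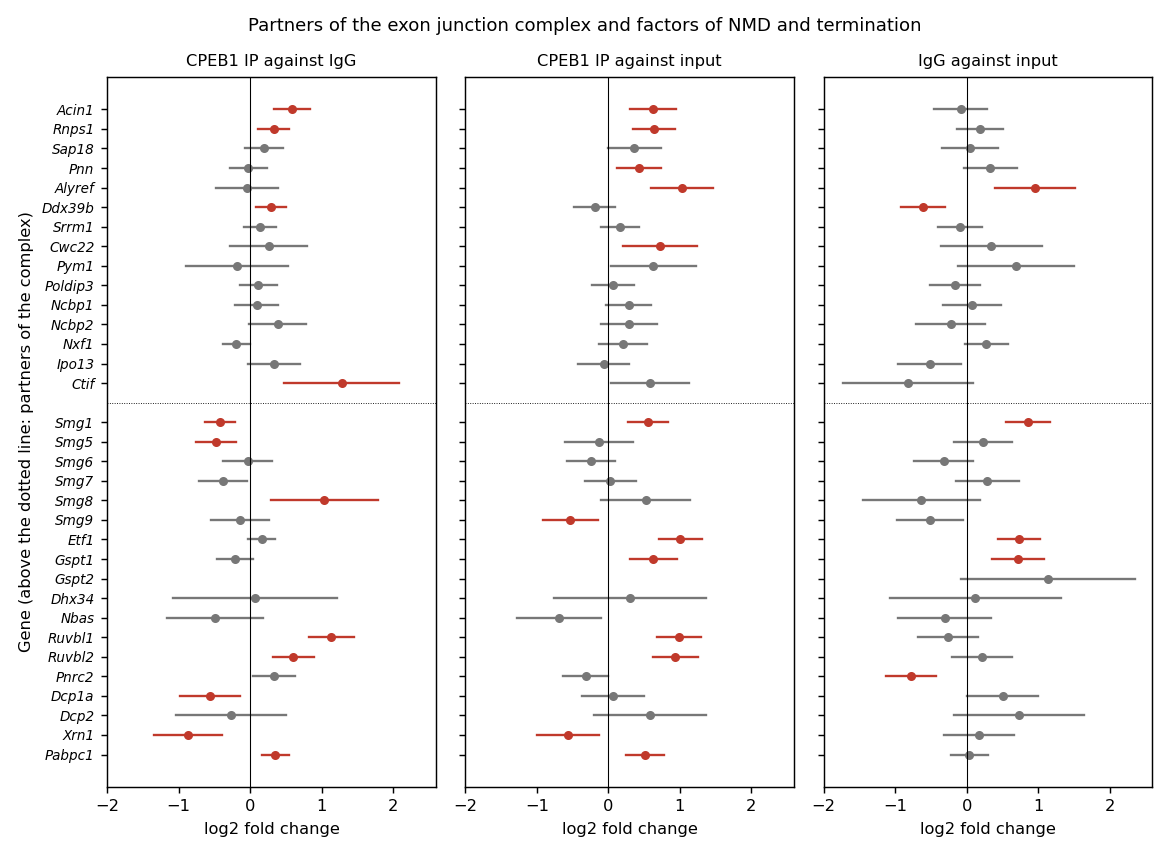
Log2 fold change of the 15 partners of the EJC (above the dotted line) and of the 18 genes of NMD and termination (below it) in the 3 comparisons. Points are estimates of edgeR with 95% intervals as lines, and red marks an adjusted p under 0.05. In the partners, 4 genes are red against IgG and 5 against input for CPEB1 IP, all to the right of 0, and in the other list 4 lie to the right and 4 to the left against IgG, of which none stays called as lower with DESeq2 and Dcp1a and Smg5 turn to the right with the authors' FPKM totals.

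The genes whose levels across the 6 libraries were most like those of Eif4a3 were sought by the Euclidean distance of centred log2 CPM over 14276 genes. The nearest was Chd4, a chromatin remodelling ATPase, at a distance of 0.56, with 909 and 898 CPM in CPEB1 IP, compared with 254 and 244 in IgG and, in input, 296 and 336. Kdm5b, a histone demethylase, followed at 0.60, with 546 and 566, 143 and 143, and 158 and 137 CPM. Ttc28 was at 0.67, with 253 and 251, 60.0 and 64.8, and 95.1 and 93.5 CPM. Nmu at 0.74 had at most 4.58 CPM and rests on few counts, and Ddx21, an RNA helicase of the nucleolus, was at 0.75 with 982 and 973, 291 and 298, and 275 and 253 CPM. None of the other 8 genes of the set was among these 5, which says nothing about the set, since only 5 of 14276 genes were listed. With a library left out in turn, 2 to 4 of the 5 were found again.

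Near copies of these genes had few counts. Rbm8a2, a copy of Rbm8a, had 0 to 4 counts in a library, and of the Eif4a3-like genes Gm5580 had 0 to 9 and Gm8994 0 to 1. Gm44958, which overlaps Magohb by 736 bases on the same strand, had 0 counts in all 6 libraries. The sources do not say how reads that fall in both genes were counted, and the effect on Magohb was not tested.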

How the data were processed

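The deposited tables held, for each library, the raw counts of reads on genes, which the authors made with HISAT and featureCounts on mm10 and left without normalization, and FPKM, which the authors computed from the counts, the summed exon length and a library total larger than the counts on genes. The strand setting and the treatment of multi-mapping reads were not given in the sources used here. Counts were compared in R 4.3.3 with edgeR 4.0.16, 2 groups at a time, with filterByExpr, TMM and the quasi-likelihood test, and p-values were adjusted by Benjamini-Hochberg over all genes (threshold 0.05). CPM come from 1 TMM normalization of all 6 libraries, and can differ slightly from the log2 fold changes. In simulated counts, 77% to 90% of 200 genes with a log2 fold change of 2 were recovered. Smaller changes were not simulated. DESeq2 1.42.0 was an alternative. CPE motifs were those in the study's list of CPEs, of which 146 rows were held. The genes and lists were chosen with earlier results of these data known. Named were the 9 genes, Eif4a1, Eif4a2, Cpeb1, per list, comparison and direction up to 3 genes called with the largest change, and the 5 genes most like Eif4a3. Others named in the counts of the lists (Ddx39b, Pabpc1, Smg1, Gspt1, Acin1 and Pnn) were added after their values were seen. Matplotlib 3.10.9 drew the plots.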

Additional observations from a re-analysis of the deposited data

How the results depend on the processing

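The groups hold 2 libraries each, and counts on the low genes (Magohb, Upf1, Upf2, Upf3b) are few, from 14 counts in a library. Counts of called genes refer to the 8 genes other than Eif4a3 in the comparisons of CPEB1 IP, to all 9 for IgG against input and to the 33 genes of both pathway lists together. For part of the fits they stand beside the calls over all genes. With the authors' FPKM totals these were 7212 higher and 521 lower of 11503 for CPEB1 IP against IgG. They were 1222 and 2753 of 12046 for CPEB1 IP against input and 551 and 7172 of 12008 for IgG against input. The causes of the shifts below were not tested, except that another library size moves all genes of a comparison alike.

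Same-numbered libraries showed no shared deviation from their group means, with correlations of -0.0107 between CPEB1 IP and IgG, -0.0206 between CPEB1 IP and input and 0.0324 between IgG and input. These correlations cannot tell whether the libraries were made in pairs. The study's methods normalize each CPEB1 IP to the IgG of its own experiment. With the replicate number as a block, 1 gene of the set was called in each of the 3 comparisons, as without it. Of the lists, 12, 11 and 7 genes were called in place of 12, 13 and 6. Over all genes the block called 1739 higher and 2231 lower of 12124 for CPEB1 IP against IgG. It called 1937 and 1804 of 12171 for CPEB1 IP against input and 2777 and 2681 of 12980 for IgG against input.

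For CPEB1 IP against IgG, 2 genes of the set were called with counts on genes as library size, 5 with the authors' FPKM totals and 2 with no filter on low counts, in place of 1, and 0 to 1 with a library left out. Of the lists, the FPKM totals called 26 genes higher and 0 lower in place of 8 and 4, and DESeq2 and no filter each called 15 and 0. Over all genes, counts on genes as library size called 1435 higher and 2491 lower of 12124, DESeq2 2619 and 984 of 19222 and no filter 3513 and 2336 of 42045. Against input, DESeq2 called 1230 and 1190 of 9830 for CPEB1 IP. For IgG it called 1188 and 1602 of 18313, and no filter 4109 and 3066 of 40052. For CPEB1 IP against input, 0 genes of the set were called with DESeq2 and 2 with the FPKM totals, and 0 to 2 with a library left out, and the lists gave 5 to 17 genes in place of 13, with 5 higher and 4 lower with the FPKM totals in place of 11 and 2. For IgG against input, DESeq2 called 0 of the set, the FPKM totals 7 and no filter 2, and 1 to 2 were called with a library left out. The lists gave 0 higher and 23 lower with the FPKM totals in place of 4 and 2, and 3 to 9 with a library left out.

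The direction turned in these cases. For CPEB1 IP against IgG the log2 fold change with DESeq2 was 0.094 for Magohb, 0.15 for Casc3, 0.028 for Upf3b and 0.027 for Eif4a2. With no filter it was 0.20, 0.27, 0.15 and 0.14 for these genes, and with the FPKM totals 0.61, 0.68, 0.55 and 0.55, with 0.30 for Upf1, 0.25 for Dcp1a and 0.33 for Smg5. Against input, the FPKM totals gave -0.11 for Upf2 and -0.0065 for Upf3a. For IgG against input, DESeq2 gave -0.13 for Casc3, -0.071 for Eif4a2 and -0.093 for Cpeb1, no filter gave -0.26, -0.20 and -0.22, and the FPKM totals gave -0.87, -0.81 and -0.83, with -0.42 for Magohb, -0.017 for Smg1, -0.16 for Etf1 and -0.17 for Gspt1. With a library left out, Magohb lay between -0.32 and 0.026 over IgG, Magoh between -0.18 and 0.13 and Casc3 between -0.050 and 0.0007 over input, and for IgG against input Casc3 lay between -0.042 and 0.018, Eif4a2 between -0.088 and 0.18 and Cpeb1 between -0.093 and 0.20. Eif4a3 lay between 2.19 and 3.06 over IgG and between 1.79 and 2.24 over input in all fits.

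An FPKM ratio over 2 in both experiments was held by 3 genes with a pseudocount of 0.1, by 1 with a pseudocount of 5, by 1 with TMM library sizes, and by 2 to 4 in 1 experiment alone. Of the 5 genes most like Eif4a3, 2 were found by Pearson correlation and 2 to 4 with a library left out, which was chosen after seeing the data, as were the lengths of coding transcripts and the basic transcripts, with which 7 genes kept a CPE motif. Over all genes, DESeq2 called 2619 higher and 984 lower for CPEB1 IP against IgG and no filter 3513 and 2336, in place of 1779 and 2265, and a library left out gave 1054 to 1783 higher and 677 to 1750 lower, the lone library being assumed to vary like the other groups.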
